A study of Mus musculus with 6 samples.

Results

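The genes described here are 49 genes of DNA replication and of the step from G1 into S phase, followed across 6 arrays of mouse J1 embryonic stem cells. They were chosen by name or older synonym from the array's gene names, and each was represented by its brightest probe. All 49 had a probe, out of 19307 genes tested in all, and every one of the 49 was well above background and not saturated on all 6 arrays. By role they were 15 genes of origin licensing, 6 of helicase activation, 6 of the polymerases and primase, 6 of the sliding clamp and its loader, 5 of single-strand binding and flap joining, 3 of nucleotide supply, and 8 G1/S cyclins, kinases and E2f1. The cells received either NT, a control siRNA that targets no gene, or an siRNA to Thoc2 or to Thoc5, and each group had 2 arrays. All 3 groups shared the J1 line, the M10 medium used for transfection, and RNA harvest at 96 hours. Both target genes code for parts of the THO complex, which packages new mRNA for export from the nucleus. The labels do not say whether the 2 arrays of a group came from separate cultures, so each p-value measures the spread between arrays, which may be technical.

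A cell prepares to copy its DNA in G1, when the origin recognition complex (Orc1 to Orc6), Cdc6 and Cdt1 load the Mcm2 to Mcm7 helicase onto origins, a step that geminin (Gmnn) blocks afterwards. In S phase Cdc45, the GINS proteins and Mcm10 turn the loaded helicase on, DNA polymerase alpha with its primase lays primers, and polymerases delta and epsilon extend them on the Pcna clamp that Rfc loads. Cyclin D with Cdk4 and cyclin E with Cdk2 drive this entry by releasing E2F factors, which switch on many of the same replication genes. Mouse embryonic stem cells have a short G1 and keep cyclin E high with little cyclin D1, and most cells of a growing culture are in S phase.

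Levels are the log2 processed signal of a probe minus the 75th percentile of its array, so they serve to compare arrays for one gene and not one gene with another. The share of spots well above background ran from 56.7% on Thoc5 replicate 1, which also had the lowest signal at the 75th percentile, to 79.7% on Thoc2 replicate 1, which had 880 outlier spots against 63 to 155 on the others. Replicates correlated across genes at 0.965 to 0.976, and arrays of different groups at 0.954 to 0.975. NT replicate 1 and Thoc2 replicate 2 lay on 1 slide, and NT replicate 2 and Thoc5 replicate 2 on another. Thoc2 replicate 1 and Thoc5 replicate 1 were each alone on a slide, and Thoc2 replicate 1 was scanned on another day. The targeted genes were lower in their own groups, Thoc2 by -0.86 ± 0.28 (log2 difference ± SE of the limma fit) and Thoc5 by -1.27 ± 0.27, and neither passed an adjusted p of 0.05 (0.302 and 0.129). The 8 embryonic stem cell markers, Pou5f1, Nanog and Sox2 among them, were well above background on all 6 arrays, with a median level of 4.63 and 4.46 (NT), 4.31 and 4.03 (Thoc2), and 4.08 and 3.98 (Thoc5). With each siRNA 8 of 8 lay below 0, where 44.4% (Thoc2) and 56.8% (Thoc5) of all genes did. At an unadjusted limma p under 0.05, 0 were lower with Thoc2 siRNA and 3 with Thoc5 siRNA (37.5% against 12.1% of all genes). These 3 were Pou5f1 (-0.88), Nanog (-0.499) and Sox2 (-0.52). The part of the stem cell markers in the results below was not tested. Of 11 fibroblast and feeder markers 10 were tested, with array medians of -2.40 to -1.43. Lum had no probe that passed the filter on dim probes. Of the 10, 6 lay above 0 and 4 below with Thoc2 siRNA, and 3 above and 7 below with Thoc5 siRNA. At an unadjusted limma p under 0.05, 1 was higher and 2 lower with Thoc2 siRNA (30% against 14.6% of all genes). By this rule 3 were lower with Thoc5 siRNA (30% against 12.1%). Thy1, a surface protein of fibroblasts among other cells, was at 0.64 and 0.03 (NT), -1.35 and -1.11 (Thoc2), and -1.22 and -2.13 (Thoc5), so all 4 THO siRNA arrays were below both NT arrays. Its differences were -1.56 and -2.01, and those of the collagen gene Col1a1 -0.97 and -1.37. Another collagen gene, Col3a1, was the higher 1 with Thoc2 siRNA (2.03, both arrays above NT) and was at 0.32 with Thoc5 siRNA. It was well above background on only 3 arrays. Dcn was at 1.06 and -0.30. Of 6 trophectoderm markers 5 were tested, with array medians of -3.23 to -2.54. Elf5 had no probe that passed the filter on dim probes. With Thoc5 siRNA 5 of 5 lay above 0 (median difference 0.65) and 3 were higher at an unadjusted p under 0.05, namely Hand1 (1.16), Krt8 (0.68) and Krt18 (0.65). With Thoc2 siRNA 3 of 5 lay above 0 (median 0.34), and 1 was higher and 1 lower by that rule. Of all genes 43.2% lay above 0 with Thoc5 siRNA and 55.6% with Thoc2 siRNA. By that rule 7.45% of all genes were higher with Thoc5 siRNA, and 14.6% met it with Thoc2 siRNA. The 6 primitive endoderm markers had a median of -0.52 and -3.57 on the NT arrays, -1.78 and -1.69 on the Thoc2 arrays, and -0.083 and -1.83 on the Thoc5 arrays. The part of these markers in the results was not tested.

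The first question was whether replication genes differed in level when the THO subunit Thoc2 was targeted. With Thoc2 siRNA 2 of the 49 genes, Ccnd1 and Pola1, were lower at an unadjusted threshold, a smaller share than among all genes. In these bulk RNA samples fewer cells in a phase of the cycle and less mRNA per cell cannot be told apart. No member passed the adjusted limma threshold, and no gene of the whole array did (0% of 19306 genes, smallest adjusted p 0.207). At an unadjusted limma p under 0.05, which 14.6% of all genes met, 2 of 49 members were counted (4.08%). These were Ccnd1, which encodes cyclin D1, and Pola1, the catalytic subunit of polymerase alpha, both lower (6.5% of all genes were lower by this rule). Both Thoc2 arrays were above both NT arrays for 13 members and below them for 14, where 26.4% and 21% of all genes were. The members' median log2 difference was -0.04 against 0.06 for all genes, and 28 of 49 lay below 0 where 44.4% of all genes did. Differences under 0.5 in size were seen for 45 of 49 members (91.8%), for 65% of all genes and for 74.1% of the 15059 genes that were well above background on all 6 arrays. The count of 2 was 1 without NT replicate 2. The median was -0.12 without NT replicate 1, -0.09 without Thoc2 replicate 2 and -0.017 without NT replicate 2. On the deposited scale 23 of 49 members lay below 0 and 3 met the unadjusted threshold, 2 lower and 1 higher. The share of all genes in that fit is not given here, so this count is not compared with all genes. With normexp background correction the members' median was -0.31 against 0.29 for all genes, and 36 of 49 lay below 0. The count was 5 of 49 among probes well above background on all 6 arrays (18.8% of all genes). It was 7 of 49 with an intensity trend and robust variances (16.5% of all genes). Both were smaller shares than those of all genes.

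The same question was asked of Thoc5. In the fit as designed the replication genes met the unadjusted threshold with Thoc5 siRNA no more often than all genes did. With an intensity trend and robust variances they met it more often. Pola1 had the largest difference among them. None passed the adjusted threshold, which no gene of the array passed either (0%, smallest adjusted p 0.1), and 8 of 49 members (16.3%) met an unadjusted limma p under 0.05, against 19.6% of all genes. The 7 lower members were Pola1, Rfc4, Mcm4, Mcm10, Orc3, Ccnd1 and Ccne1 (12.1% of all genes were lower by this rule), and the 1 higher member was Cdc45 (7.45% of all genes were higher). Both Thoc5 arrays were above both NT arrays for 11 members and below them for 22, where 21.8% and 31.2% of all genes were. The members' median was -0.108 against -0.085 for all genes, and 33 of 49 lay below 0, where 56.8% of all genes did. Differences under 0.5 were seen for 43 of 49 members (87.8%), 62.1% of all genes and 69.7% of the genes well above background on all 6 arrays. The count of 8 was lower with any 1 array left out. Leaving out a Thoc2 array does not change the difference of Thoc5 siRNA from NT, only the spread estimate and its degrees of freedom. The fall in count therefore cannot be read as dependence on a single array. Pola1 lay below NT each time. The median was -0.17 without NT replicate 1 and -0.18 without Thoc5 replicate 1. On the deposited scale 7 members were counted, 5 lower and 2 higher, and with normexp background correction 1, which was lower. These counts are not compared with all genes. With normexp the median was -0.35 where that of all genes was 0.242. With an intensity trend and robust variances 14 of 49 were counted, a larger share than the 21.8% of all genes.

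**Figure D1:**
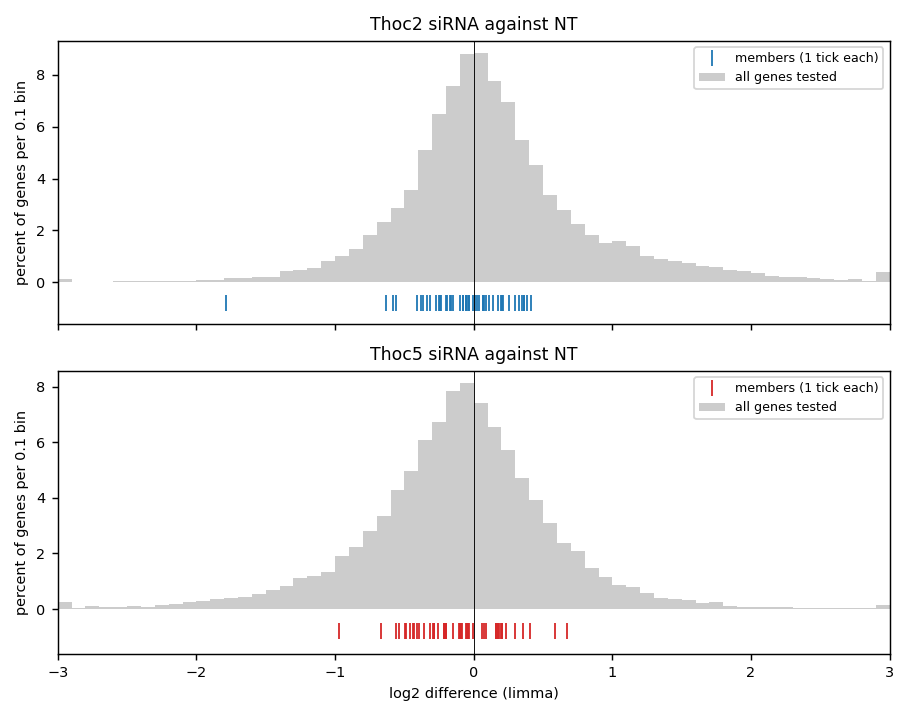
Distribution of limma log2 differences for all genes tested (grey, percent of genes per bin of 0.1) with 1 tick for each of the 49 members, for Thoc2 siRNA against NT (top) and Thoc5 siRNA against NT (bottom). The end bins hold all genes beyond 3 or -3. All members but E2f1 in the Thoc2 panel (-1.78) lie between -1 and 1. They are within the 5th to 95th percentiles of all genes (-0.86 to 1.47 for Thoc2, -1.28 to 0.97 for Thoc5). Pola1 in the Thoc5 panel (-0.97) lies below the 5th percentile (-0.93) of genes well above background on all 6 arrays.

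Taking the mean of the Thoc2 and Thoc5 siRNA groups against NT, 4 of 49 members met an unadjusted limma p under 0.05 (8.16%), against 19.3% of all genes. All 4 were lower: Pola1, Rfc4, Ccnd1 and Orc3 (10.4% of all genes were lower by this rule). No gene passed the adjusted threshold (0%), and 29 of 49 members lay below 0 where 50.8% of all genes did. The count was 2 without NT replicate 2 or without Thoc5 replicate 2. The median of -0.08 was -0.16 without NT replicate 1. On the deposited scale 3 members were lower and 1 higher, a count not compared with all genes. The count was 8 among probes well above background on all 6 arrays (25.4% of all genes) and 16 with an intensity trend and robust variances (21.4% of all genes). With normexp the median was -0.31 against 0.268 for all genes. These 3 comparisons share the 2 NT arrays, so a low or high NT value of a gene moves all of them.

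**Figure D2:**
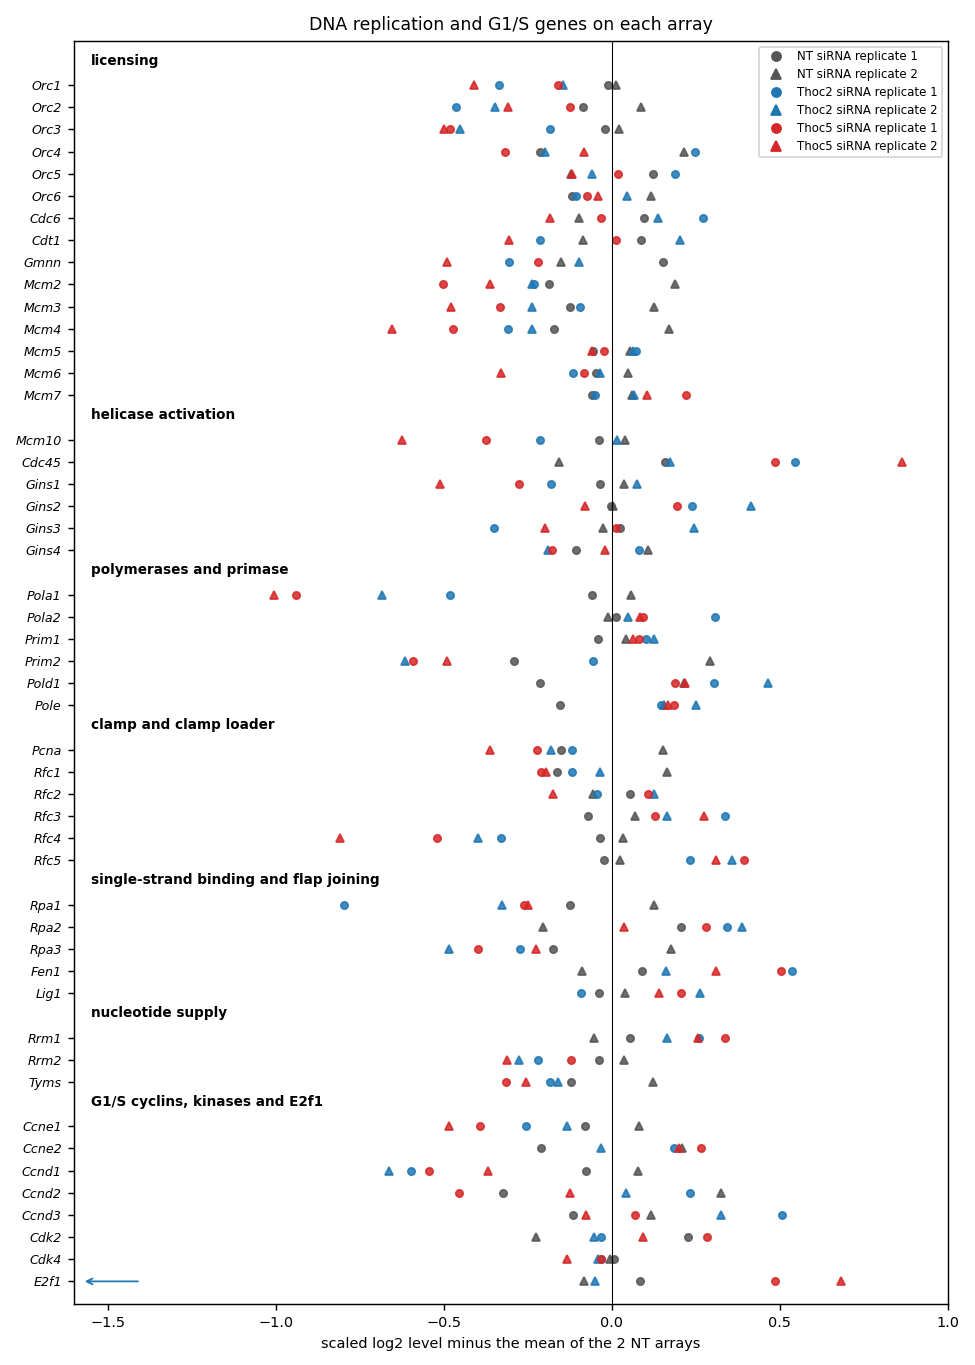
Scaled log2 level of each of the 49 members on each of the 6 arrays, minus the mean of that gene's 2 NT arrays, grouped by role (circles replicate 1, triangles replicate 2). The arrow marks E2f1 on Thoc2 replicate 1, whose level of -2.75 lies off the scale. All 4 THO siRNA arrays lie to the left of both NT arrays for 14 members, Pola1, Rfc4 and Ccnd1 among them. They lie to the right for 7, Cdc45 among them. Of 19306 genes 3146 had them all lower and 2756 all higher.

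Among the 15 licensing genes 14 were below 0 with Thoc5 siRNA and 10 with Thoc2 siRNA, with medians of -0.21 and -0.08. Of all genes 56.8% and 44.4% were below 0, with medians of -0.085 and 0.06. Mcm7 was the 1 licensing gene above 0 with Thoc5 siRNA. Mcm4, a helicase subunit, had levels of 6.26 and 6.61 (NT), 6.13 and 6.20 (Thoc2), and 5.96 and 5.78 (Thoc5). Each THO siRNA array was below both NT arrays. The difference was -0.56 ± 0.19 with Thoc5 siRNA (unadjusted p 0.0327, adjusted p 0.213, 67.6% of NT) and -0.27 ± 0.19 with Thoc2 siRNA. Orc3, an origin recognition subunit, stood at 2.03 and 2.07 (NT), 1.87 and 1.599 (Thoc2) and 1.57 and 1.55 (Thoc5). Its groups did not overlap, with NT highest and Thoc5 lowest, and the difference with Thoc5 siRNA was -0.49 ± 0.16 (unadjusted p 0.0311, adjusted p 0.21). Its 5 probes did not give one size: with Thoc5 siRNA they were at -0.49, -0.39, -0.30, -0.084 and -0.071, in order from the brightest to the dimmest. The mean of these probes was at -0.27. Mcm2, another helicase subunit, was at 3.90 and 4.27 (NT), 3.85 and 3.84 (Thoc2), and 3.58 and 3.72 (Thoc5). Its differences were -0.24 ± 0.19 and -0.43 ± 0.19 (unadjusted p 0.27 and 0.0739). Mcm3 was at -0.41 ± 0.17 with Thoc5 siRNA by its brightest probe and at -0.009 ± 0.23 by its second, so its probes disagreed. Those of Orc4 disagreed in sign. With Thoc5 siRNA its brightest probe was at -0.20 and its others, from brighter to dimmer, at 0.21, 0.006 and -0.51.

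The helicase subunit Mcm5 and the loading factors Cdc6 and Cdt1 lay nearer to NT. Mcm5 was at 5.56 and 5.67 (NT), 5.69 and 5.68 (Thoc2), and 5.59 and 5.56 (Thoc5), with differences of 0.07 ± 0.14 and -0.04 ± 0.14. For Cdc6 the levels were 2.14 and 1.95 (NT), 2.32 and 2.18 (Thoc2), and 2.01 and 1.86 (Thoc5), with differences of 0.20 ± 0.16 and -0.11 ± 0.16. For Cdt1 they were 6.52 and 6.34 (NT), 6.22 and 6.63 (Thoc2), and 6.44 and 6.12 (Thoc5), with differences of -0.006 ± 0.23 and -0.15 ± 0.23. None of these met the unadjusted threshold, and the sign of each of the 3 genes turned in at least 1 comparison under another scaling or background correction. By their brightest probes the other licensing genes lay between -0.41 (Orc2 with Thoc2 siRNA, unadjusted p 0.0573) and 0.16 (Mcm7 with Thoc5 siRNA). Some dimmer probes lay outside this range with Thoc2 siRNA, those of Orc4 at 0.38 and -0.70 and that of Orc5 at 3.08. The Orc5 one was well above background on only 3 arrays.

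Of the 6 helicase activation genes 4 were below 0 in each siRNA comparison, and 2 met the unadjusted threshold with Thoc5 siRNA, in opposite directions. Of all genes 44.4% (Thoc2) and 56.8% (Thoc5) were below 0, and 19.6% met that threshold with Thoc5 siRNA. Mcm10, which helps the activated helicase to leave the origin, had levels of 5.64 and 5.71 (NT), 5.46 and 5.69 (Thoc2), and 5.301 and 5.05 (Thoc5). The Thoc5 arrays were below the other 4, while the Thoc2 arrays overlapped the NT arrays. Mcm10 was at -0.499 ± 0.17 with Thoc5 siRNA (unadjusted p 0.0403, adjusted p 0.234) and at -0.10 ± 0.17 with Thoc2 siRNA. Cdc45, which joins Mcm2 to Mcm7 and GINS in the active helicase, was at 0.78 and 0.47 (NT), 1.17 and 0.798 (Thoc2), and 1.11 and 1.49 (Thoc5). Every THO siRNA array was above both NT arrays, Thoc2 replicate 2 by only a small margin. The difference was 0.67 ± 0.24 with Thoc5 siRNA (unadjusted p 0.0444, adjusted p 0.243, 159.6% of NT) and 0.36 ± 0.24 with Thoc2 siRNA. Within the slide shared with NT replicate 1, Thoc2 replicate 2 differed from NT by 0.01. The GINS genes ran from -0.05 to 0.33 with Thoc2 siRNA and from -0.39 (Gins1, unadjusted p 0.0811) to 0.06 with Thoc5 siRNA.

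Pola1 gave the largest difference among the members with Thoc5 siRNA, while 4 of the other 5 genes of its role lay above 0. It encodes the polymerase subunit that extends the RNA primer with the first DNA. Its levels were 3.54 and 3.65 (NT), 3.11 and 2.91 (Thoc2), and 2.66 and 2.59 (Thoc5). The groups did not overlap, NT being highest and Thoc5 lowest. Pola1 stood at 51.0% of NT with Thoc5 siRNA (-0.97 ± 0.15, unadjusted p 0.00209, adjusted p 0.106) and at 66.8% with Thoc2 siRNA (-0.58 ± 0.15, unadjusted p 0.0153, adjusted p 0.252). Within the shared slides it was at -1.06 with Thoc5 siRNA and -0.62 with Thoc2 siRNA. For Thoc5 siRNA it passed the adjusted threshold in 2 alternative fits, with an adjusted p of 0.0434 among probes well above background on all 6 arrays and of 0.0249 with an intensity trend and robust variances (range over all alternatives 0.0249 to 0.657). In these same fits 543 and 661 genes of the array passed. Of the other 5 genes of this role Pola2, Prim1, Pold1 and Pole lay above 0 in both comparisons, at 0.07 to 0.38. Prim2, the large primase subunit, was at -0.34 ± 0.30 and -0.54 ± 0.30 with unadjusted p-values of 0.322 and 0.139.

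The clamp loader genes did not share a direction. Rfc4, a small subunit of the loader, had levels of 5.01 and 5.08 (NT), 4.72 and 4.64 (Thoc2), and 4.52 and 4.24 (Thoc5). Its 3 groups did not overlap. It was at 63.1% of NT with Thoc5 siRNA (-0.67 ± 0.17, unadjusted p 0.0125, adjusted p 0.151) and at 77.7% with Thoc2 siRNA (-0.37 ± 0.17, unadjusted p 0.0844). Rfc5, another small subunit, was at 5.59 and 5.64 (NT), 5.84 and 5.97 (Thoc2), and 6.01 and 5.92 (Thoc5). All 4 THO siRNA arrays were thus above both NT arrays for Rfc5, by 0.295 ± 0.14 and 0.35 ± 0.14, with unadjusted p-values of 0.0961 and 0.0599. Pcna, the clamp itself, was at 6.84 and 7.14 (NT), 6.87 and 6.81 (Thoc2), and 6.77 and 6.62 (Thoc5). Its differences were -0.15 ± 0.17 and -0.29 ± 0.17 (unadjusted p 0.427 and 0.157), and only the Thoc5 arrays lay clear of the NT arrays. Rfc1, Rfc2 and Rfc3 were between -0.20 and 0.25 in both comparisons.

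No gene of single-strand binding, flap joining or nucleotide supply met the unadjusted threshold with either siRNA. Among the subunits of replication protein A, which coats single-stranded DNA, Rpa1 and Rpa3 were below 0 and Rpa2 above 0 in both comparisons. Rpa1 was at 4.86 and 5.11 (NT), 4.19 and 4.66 (Thoc2), and 4.72 and 4.74 (Thoc5), with its lowest value on Thoc2 replicate 1 and a difference of -0.56 ± 0.22 with Thoc2 siRNA (unadjusted p 0.0561). Fen1, the flap nuclease, was at 0.35 ± 0.20 and 0.41 ± 0.20, and Lig1, the ligase that seals the fragments, at 0.09 ± 0.18 and 0.17 ± 0.18. The 2 subunits of ribonucleotide reductase, which makes deoxynucleotides, stood on opposite sides of 0. Rrm1 was at 0.21 ± 0.14 and 0.296 ± 0.14, while Rrm2 had levels of 3.72 and 3.799 (NT), 3.54 and 3.49 (Thoc2), and 3.64 and 3.45 (Thoc5), with differences of -0.25 ± 0.15 and -0.22 ± 0.15.

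Among the G1/S regulators Ccnd1 had levels of 1.33 and 1.49 (NT), 0.81 and 0.75 (Thoc2), and 0.87 and 1.04 (Thoc5). All 4 THO siRNA arrays were below both NT arrays, and Thoc2 siRNA gave the lower values. Ccnd1 was at 64.6% of NT with Thoc2 siRNA (-0.63 ± 0.15, unadjusted p 0.0117, adjusted p 0.242) and at 72.8% with Thoc5 siRNA (-0.46 ± 0.15, unadjusted p 0.0354, adjusted p 0.22). Ccnd3, the gene of cyclin D3, was at 3.55 and 3.78 (NT), 4.17 and 3.99 (Thoc2), and 3.73 and 3.58 (Thoc5). Its Thoc2 arrays were above the other 4, with a difference of 0.41 ± 0.17 (unadjusted p 0.0645) with Thoc2 siRNA and of -0.003 ± 0.17 with Thoc5 siRNA, a value whose sign turned on the deposited scale. Ccnd2 ranged over 1.14 and 1.78 on the NT arrays alone and differed by 0.14 ± 0.28 and -0.29 ± 0.28.

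Ccne1, the gene of cyclin E1, had levels of 7.27 and 7.43 (NT), 7.09 and 7.21 (Thoc2), and 6.95 and 6.86 (Thoc5). Its groups did not overlap, and the differences were -0.19 ± 0.15 and -0.44 ± 0.15 (with Thoc5 siRNA unadjusted p 0.0369, adjusted p 0.224, 73.8% of NT). A second, dimmer Ccne1 probe was at 0.16 ± 0.29 and 0.19 ± 0.29, on the other side of 0, and the mean of both probes was at -0.126 with Thoc5 siRNA. Ccne2, of cyclin E2, was at 0.08 ± 0.21 and 0.23 ± 0.21. The kinase genes were near NT: Cdk4 was at -0.04 ± 0.14 and -0.08 ± 0.14, and Cdk2 at -0.04 ± 0.21 and 0.19 ± 0.21.

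**Figure D3:**
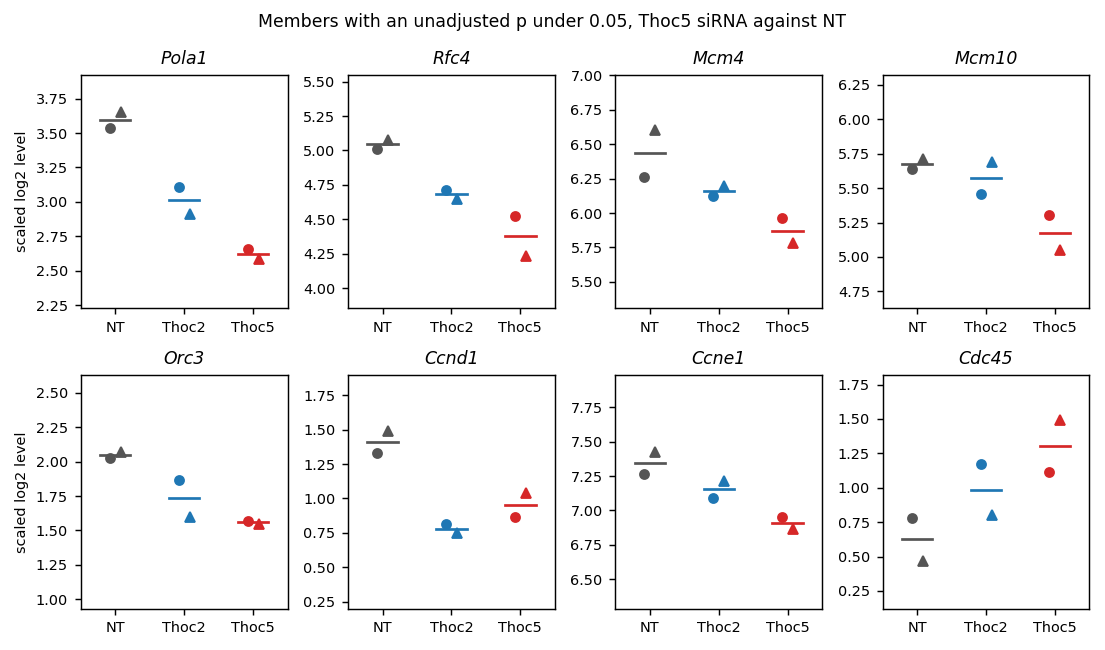
Scaled log2 level on each array of the 8 members with an unadjusted p under 0.05 for Thoc5 siRNA against NT (circles replicate 1, triangles replicate 2, lines the mean of the 2 arrays). Each panel has its own axis, and all axes span the same range. For Pola1, Rfc4, Mcm4, Orc3 and Ccne1 both Thoc2 arrays lie below both NT arrays and above both Thoc5 arrays.

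E2f1, the transcription factor that acts on many replication genes, was read by 2 probes that gave different pictures on 1 array. The brighter probe, with 1 spot per array, was at 0.85 and 0.68 (NT), -2.75 and 0.71 (Thoc2), and 1.25 and 1.45 (Thoc5). Its low value on Thoc2 replicate 1 set the Thoc2 difference of -1.78 ± 1.17 (unadjusted p 0.193), which was -0.05 without that array. The second probe, with 10 spots per array, was at -1.16 and -1.49 (NT), -0.98 and -1.42 (Thoc2), and -0.57 and -0.62 (Thoc5), with nothing low on Thoc2 replicate 1. By this probe E2f1 differed by 0.13 ± 0.23 with Thoc2 siRNA and by 0.72 ± 0.23 with Thoc5 siRNA (unadjusted p 0.0274, adjusted p 0.199 in the fit over all probes). Both probes put the 2 Thoc5 arrays above the other 4. For the brighter probe the Thoc5 difference of 0.58 ± 1.17 had an unadjusted p of 0.64, and of 0.0335 when either Thoc2 array was left out, since E2f1's fit shares 1 spread over the 3 groups.

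**Figure D4:**
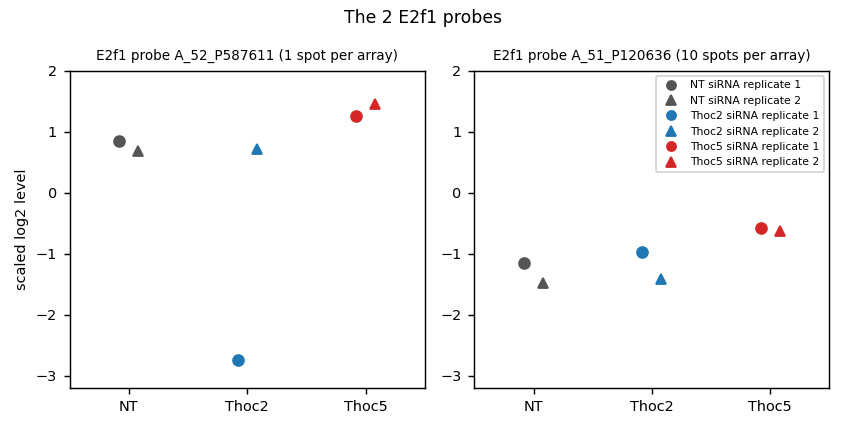
Scaled log2 level of the 2 E2f1 probes on each array (circles replicate 1, triangles replicate 2), with the 1-spot probe on the left and the 10-spot probe on the right, on the same axis. The left panel holds the value of -2.75 on Thoc2 replicate 1, which has no counterpart in the right panel, and in both panels the Thoc5 arrays are highest.

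Whether the siRNAs differed from each other was asked by setting Thoc5 against Thoc2 siRNA directly. No member met even the unadjusted threshold in the limma fit, which 9.19% of all genes met, and no gene of the array passed when adjusted (0%, smallest adjusted p 0.395). The members' median was -0.109 against -0.126 for all genes, and 35 of 49 members lay below 0, where 64.9% of all genes did. The 6 members with the smallest p were Pola1 (-0.39 ± 0.15, unadjusted p 0.0567), Ccnd3 (-0.42 ± 0.17, 0.0632), Mcm10 (-0.40 ± 0.17, 0.0767), E2f1 (2.37 ± 1.17, 0.104), Cdc6 (-0.31 ± 0.16, 0.116) and Gins1 (-0.34 ± 0.18, 0.116). The larger difference of Pola1 with Thoc5 than with Thoc2 siRNA was therefore not past the threshold in a test of that difference. For E2f1 the 2.37 is that of the brighter probe, with its low value on Thoc2 replicate 1. By the 10-spot probe the difference was 0.60 ± 0.23 (unadjusted limma p 0.0503 in the fit over all probes). Without Thoc2 replicate 1 or without Thoc2 replicate 2 the count was 1, which was E2f1, at 0.64 and 4.10. The median was -0.04 without Thoc5 replicate 2.

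The promoters of 4 members are printed to show the sequence around the start of the gene with the largest difference (Pola1), of a helicase gene with 3 E2F-type matches (Mcm6), and of the lower member Rfc4 and the higher member Cdc45, which have none. They were chosen after the values were seen. The sequences are those of RefSeq on GRCm38.p6, from 250 bases before to 50 bases after the start of the gene, 5′ to 3′ on the gene's strand, here the minus strand for all 4. Capitals mark matches to the E2F-type words TTTCCCGC, TTTGGCGC, TTTCGCGC and TTTGCCGC, read on both strands.
Pola1, chrX:93632106-93632405: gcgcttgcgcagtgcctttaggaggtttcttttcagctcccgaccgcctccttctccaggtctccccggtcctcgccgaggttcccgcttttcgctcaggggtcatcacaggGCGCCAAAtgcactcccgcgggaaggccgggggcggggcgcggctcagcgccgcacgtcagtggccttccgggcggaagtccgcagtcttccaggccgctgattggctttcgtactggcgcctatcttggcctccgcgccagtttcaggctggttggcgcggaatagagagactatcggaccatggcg
Mcm6, chr1:128359656-128359955: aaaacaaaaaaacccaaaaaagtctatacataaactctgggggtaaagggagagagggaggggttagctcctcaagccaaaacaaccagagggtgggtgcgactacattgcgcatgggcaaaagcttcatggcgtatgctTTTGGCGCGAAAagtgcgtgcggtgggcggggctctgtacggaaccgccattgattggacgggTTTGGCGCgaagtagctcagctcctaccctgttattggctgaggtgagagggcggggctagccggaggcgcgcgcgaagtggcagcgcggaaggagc
Rfc4, chr16:23127681-23127980: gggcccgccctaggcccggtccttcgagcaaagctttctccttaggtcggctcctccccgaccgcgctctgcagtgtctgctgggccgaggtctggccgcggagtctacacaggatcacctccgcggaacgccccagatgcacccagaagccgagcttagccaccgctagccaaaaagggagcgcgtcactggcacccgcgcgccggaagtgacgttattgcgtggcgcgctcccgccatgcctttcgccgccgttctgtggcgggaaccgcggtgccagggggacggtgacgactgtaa
Cdc45, chr16:18811923-18812222: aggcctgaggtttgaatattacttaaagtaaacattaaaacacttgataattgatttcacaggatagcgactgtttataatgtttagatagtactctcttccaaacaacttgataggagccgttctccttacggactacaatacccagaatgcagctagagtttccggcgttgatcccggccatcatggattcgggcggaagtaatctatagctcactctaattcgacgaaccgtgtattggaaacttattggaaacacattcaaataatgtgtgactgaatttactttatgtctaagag

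In the Pola1 window the match, GCGCCAAA, begins 138 bases before the start. In Mcm6 the matches begin 110, 106 and 47 bases before it, and the first and second overlap. Promoters were matched for 38 of the 49 members. The 11 others were Gins1, Ccne2, Mcm4, Ccnd1, Pole, Rfc2, Prim2, Ccnd2, Gins4, Gmnn and Gins2. An E2F-type word stood in at least 1 window of 14 of the 38 members (36.8%) and of 519 of 12467 tested genes (4.16%). Counted by window it was in 30.4% of the 46 member windows and in 3.49% of the 15698 windows of tested genes. The word CCAAT, on either strand, stood in 24 of 38 members (63.2%) and in 42.5% of tested genes. The 14 members with an E2F-type word had a median difference of -0.10 with Thoc5 siRNA, with 9 below 0, and the 24 without one a median of -0.14, with 16 below 0. A word match says nothing of whether a factor binds there.

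By the coordinates of mm7, the build in the file headers, the probe of Pola1 lies on chromosome X from 88691502 to 88691561 and that of Mcm10 on chromosome 2 from 4908072 to 4908131. The probes of Rfc4, Mcm4 and Cdc45 are on chromosome 16, from 22772565 to 22772624, from 15163918 to 15163977 and from 18343039 to 18344520. The Orc3 probe is on chromosome 4 from 34709669 to 34710438, and the Ccnd1 probe on the unplaced part of chromosome 7 from 7568179 to 7568238. Both Ccne1 probes are given on chromosome 7 from 34990690 to 34990713, a span too short for the 60 bases of each. The brighter E2f1 probe is on chromosome 2 from 154301126 to 154301185. The exon that a probe matches is not given in the files.

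Other genes of replication and the cell cycle, which are not among the 49, were taken by list. Of 39 other fork and firing genes, 27 were below 0 with Thoc5 siRNA (69.2% against 56.8% of all genes) and 4 met the unadjusted threshold, all lower (10.3% against 19.6%). With Thoc2 siRNA 19 were below 0 (48.7% against 44.4% of all genes). By that threshold 1 was lower and 1 higher (5.13% against 14.6% of all genes). Atad5, which unloads Pcna, was at -0.34 ± 0.17 with Thoc2 siRNA and -0.64 ± 0.17 with Thoc5 siRNA. Mcm9, a relative of the Mcm helicase, was at -0.49 ± 0.14 and -0.37 ± 0.14, Pole4, a small subunit of polymerase epsilon, at -0.13 ± 0.15 and -0.46 ± 0.15, and Pold4, a small subunit of polymerase delta, at 0.62 ± 0.17 and 0.21 ± 0.17. Of 12 other nucleotide supply genes 10 were below 0 with Thoc2 siRNA and 9 with Thoc5 siRNA (83.3% and 75%, against 44.4% and 56.8% of all genes). None met the threshold in either, where 14.6% and 19.6% of all genes did. The smallest p-values there were those of Dtymk (-0.34 and -0.49) and Tk1 (-0.46 and -0.45), which phosphorylate thymidylate and thymidine, with Samhd1, which breaks down deoxynucleotides, at -0.397 and -0.25 and Umps, of uridylate synthesis, at -0.14 and -0.31.

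Of 27 other G1/S regulators 3 were lower with Thoc2 siRNA (11.1% against 14.6% of all genes), and 4 lower and 1 higher with Thoc5 siRNA (18.5% against 19.6%), by the unadjusted threshold. Rb1, which holds E2F factors in check, was the higher one: it was at 0.55 and 0.71 (NT), 0.72 and 0.66 (Thoc2), and 1.31 and 1.43 (Thoc5), so the Thoc5 arrays were above the other 4. Its difference was 0.74 ± 0.15 with Thoc5 siRNA (adjusted p 0.124) and 0.06 ± 0.15 with Thoc2 siRNA, and 0.68 between them (unadjusted p 0.00781). Tfdp2, a partner of E2F factors, was at -0.84 ± 0.24 and -0.89 ± 0.24. Ccna2, the gene of cyclin A2, was at -0.64 ± 0.16 and -0.47 ± 0.16. Fbxo5, an inhibitor of the anaphase-promoting complex, was at -0.09 ± 0.14 and -0.49 ± 0.14. Of 15 G2/M genes 13 were below 0 with Thoc2 siRNA and 11 with Thoc5 siRNA (86.7% and 73.3%, against 44.4% and 56.8% of all genes). At an unadjusted p under 0.05 there were 0 and 2 (0% and 13.3%, against 14.6% and 19.6% of all genes). The lower 2 were Kif11, a spindle motor (-0.32 and -0.55), and the proliferation marker Mki67 (-0.07 and -0.52). Cdc25c, a phosphatase of mitotic entry, was at -0.41 and -0.28, and the mitotic kinase Aurka at -0.38 and -0.18. The G2/M median on each array was 4.28 and 4.58 (NT), 3.69 and 4.13 (Thoc2), and 3.88 and 4.18 (Thoc5), while that of the 49 members was 3.76 and 3.85, 3.87 and 3.86, and 3.73 and 3.77.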

How the data were processed

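RNA levels were measured on 6 single-colour Agilent arrays. The spot intensity values used are the processed signals in the deposited scanner files, which per the file headers are background-subtracted and detrended. The file headers name Feature Extraction 9.5.3.1, and the submitters' processing notes 11.0. A deposited table holds log2 values whose median is 5.82 on every array and whose Spearman correlation with the processed signal was 1; it was used as an alternative scaling, and no source used here states how it was made.

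Levels are log2 processed signal minus the array's 75th percentile. Outlier spots and controls were left out, spots of a probe averaged, and a probe kept if well above background (at least 0.5 of its spots) on every array of at least 1 group; the brightest of a gene's kept probes stood for it. Symbols were updated through a RefSeq table of GRCm38.p6. This gave 19307 genes, 280 of them missing on an array; no member was missing.

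Groups were compared with limma 3.58.1 (lmFit, eBayes, R 4.3.3) over all 6 arrays, with 3 residual and 1.49 prior degrees of freedom, two-sided, with Benjamini-Hochberg adjustment over all genes and a threshold of 0.05. With 2 arrays a group the smallest p of an exact permutation test is 0.333. The number of arrays limits the precision. Differences were given for members with an unadjusted p under 0.05 and arrays that do not overlap, and for 11 genes whatever their values. They were also given for the 6 members with the smallest p between siRNAs, and for the 4 genes with the smallest p of each other list. Further members, other polymerase subunits and named marker genes, given to show their role, were chosen after their values were seen. The members and lists were chosen with earlier results of these data known. Alternatives were the deposited scaling, normexp with an offset of 50, other probe filters, the mean of probes, an intensity trend, slide and replicate blocks, and leaving out each array; a fit over single probes was added after seeing the data.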

Additional observations from a re-analysis of the deposited data

How the results depend on the processing

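The 48 differences of named members kept their sign in 414 of 426 comparisons with other settings and in 275 of 288 with 1 array left out; 36 kept it in every one. The cause of the turns below was not tested. Counts of members below that stand without a share of all genes are not compared with all genes. On the deposited scale Cdt1 turned to 0.056 (Thoc2 siRNA against NT) and 0.0016 (both siRNAs), Mcm5 to 0.087 and Ccnd3 to 0.084 (Thoc5 siRNA). The members' median was then 0.0081, -0.062 and, between the siRNAs, -0.060. With normexp Mcm5 turned to -0.31 and Cdc6 to -0.25 (Thoc2 siRNA), and Mcm5 to -0.35, Cdc6 to -0.31 and Ccnd3 to -0.115 (both siRNAs). Normexp put the median of all genes at 0.29 (Thoc2), 0.242 (Thoc5) and 0.268 (both) and that of the members at -0.31, -0.35 and -0.31, which is -0.598, -0.589 and -0.576 relative to all genes. It left 1 member at an unadjusted p under 0.05 in each of these comparisons, and 36, 42 and 38 of 49 below 0.

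Without a filter on dim probes 2 members met the unadjusted threshold with Thoc5 siRNA. With probes well above background on all 6 arrays the counts were 5 (Thoc2), 9 (Thoc5), 2 (between the siRNAs) and 8 (both), where 18.8%, 25.6%, 9.76% and 25.4% of all genes met it, and 543 (Thoc5) and 465 (both) genes of the array passed the adjusted threshold; fewer genes are tested there. With an intensity trend and robust variances they were 7, 14, 3 and 16 of 49 members. Of all genes 16.5%, 21.8%, 9.78% and 21.4% met the unadjusted threshold there. The members' share was larger than that of all genes for Thoc5 siRNA and for both siRNAs. It was smaller for Thoc2 siRNA and between the siRNAs. Genes passing the adjusted threshold were 4 (Thoc2), 661 (Thoc5) and 640 (both). In both fits Pola1 was the 1 member that passed, with an adjusted p of 0.0434 and 0.0249 for Thoc5 siRNA and of 0.0485 and 0.0304 for both siRNAs (range over all alternatives 0.0304 to 0.489). With the mean of all kept probes 2 members were counted between the siRNAs, and the median was -0.051. With slide as a random block (correlation 0.286) 2 were counted between the siRNAs. Within the shared slides the median was 0.015 (Thoc2) and -0.19 (Thoc5), Cdt1 was at 0.117 (Thoc2), and Cdc6 and E2f1 were at -0.023 and 0.32 (both).

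The labels do not pair replicate numbers. Deviations of same-numbered arrays correlated at -0.2 (NT and Thoc2), 0.143 (NT and Thoc5) and 0.218 (Thoc2 and Thoc5). The replicate block gave 2 members at an unadjusted p under 0.05 for Thoc2 siRNA, 2 for Thoc5 siRNA, 0 between the siRNAs and 3 for both, with 0 genes passing when adjusted.

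With each array left out in turn the counts of members were 1 to 2 (Thoc2), 1 to 4 (Thoc5), 0 to 1 (between the siRNAs) and 2 to 5 (both). The medians were -0.1235 to -0.017 (Thoc2), -0.176 to -0.074 (Thoc5), -0.126 to -0.044 (between the siRNAs) and -0.16 to -0.061 (both). Differences that turned ran as follows. Cdt1 lay from -0.21 to 0.203 (Thoc2), -0.307 to 0.013 (Thoc5) and -0.18 to 0.028 (both). Mcm5 lay from -0.097 to 0.013 (Thoc5) and -0.043 to 0.067 (both), Ccnd3 from -0.119 to 0.113 (Thoc5) and Cdc6 from -0.049 to 0.145 (both). E2f1 lay from -1.47 to 0.27 (both) and Pcna from -0.302 to 0.001038 (Thoc2). Where a group kept 1 array, its spread was taken from the other groups. In tests with 2 arrays a group and 0 adjusted calls in the fit as designed, a p above the threshold does not show that a level stayed the same.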
